A study of Mus musculus with 35 samples.

Results

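Complement is a cascade of plasma and tissue proteins that tags particles and dying cells and recruits phagocytes. Counts per gene from whole mouse lung were examined here for 8 complement genes, chosen by name, among the 57186 genes of the deposited table: C1qa, C1qb, C1qc, C4b, C2, C3, Cfb and Serping1. All 8 symbols were found, each on 1 gene: ENSMUSG00000036887 (C1qa), ENSMUSG00000036905 (C1qb), ENSMUSG00000036896 (C1qc), ENSMUSG00000073418 (C4b), ENSMUSG00000024371 (C2), ENSMUSG00000024164 (C3), ENSMUSG00000090231 (Cfb) and ENSMUSG00000023224 (Serping1). Of these, 7 had enough reads to be tested. Cfb did not, with 0 to 6 reads in a library.

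In the classical pathway, C1q binds antibody or altered surfaces, and proteases held by C1q then cut C4 and C2 to build an enzyme that cleaves C3. The alternative pathway reaches C3 through factor B, and C1 inhibitor blocks the proteases at the start of the cascade. Liver makes most complement in plasma. In tissues C1q comes mainly from macrophages, while C3, C4 and C1 inhibitor can be made by epithelial cells, fibroblasts and macrophages, in lung as elsewhere.

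The study used 35 lung libraries in 12 groups, set by genotype, agent and a day label of 2, 5 or 7. Control mice were RORaf/f, with a floxed Rora gene, and KO mice were RORaf/fIl7riCre, in which Cre driven from the Il7r locus deletes Rora in cells that express Il7r or descend from such cells. Both genotypes thus carried the floxed allele, and the control label names no Cre, so that loss of RORa and presence of the Cre cannot be told apart. Treated mice had received naphthalene, which airway club cells turn into a product toxic to them, 2, 5 or 7 days before. Untreated mice have the agent "none", with no vehicle named, and carry a day label as well. The design text gives an age of 14 days without saying to which time point it applies. Each group had 3 libraries, except KO mice at day 7 after naphthalene with 2. The labels do not say that the libraries of a group are separate mice, so p-values measure the spread between these libraries, which may be technical.

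Library totals ran from 10.7 to 21.06 M counts, so that 1 read was worth 0.049 to 0.089 CPM (counts per M counts of the library, scaled by the TMM factors of edgeR). Lung markers Sftpc, Scgb1a1, Ager, Pecam1 and Foxj1 together reached 13400 to 41200 CPM in every group. The club cell transcripts Scgb1a1, Scgb3a2 and Cyp2f2 summed to 559 to 1140 CPM in the treated control libraries of day 2, against 7010 to 8610 CPM in the untreated ones. Rora read 25.2 to 64 CPM in KO libraries and 32.1 to 53.4 CPM in control libraries, and since the deletion is limited to cells with an Il7r history, whole-lung Rora does not check the genotype labels. The library names in the labels carry a letter that differs between treated (a at day 2, b or i at day 5) and untreated libraries (k or n, f or o), while all libraries of day 7 carry p. What the letter stands for is not given, and at days 2 and 5 the letter and naphthalene cannot be told apart. Untreated control replicate 1 of day 5 stood apart from the other 34 libraries: 7 of 9 microglia markers were highest in it, P2ry12 at 159 CPM against at most 3.92 CPM elsewhere. It enters the comparisons of day 5 and the averages over days. For complement genes, values or calls without it stand beside those it moved there. The cell type markers were not refitted without it. All comparisons share 1 fit of the 12 groups. Its spread thus also enters the standard errors of the C1q chains at days 2 and 7 and in KO mice. Values without it are not given for these.

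Promoter sequences of 3 of the 8 members were matched in the RefSeq table (GRCm38.p6, an older build than the GRCm39 named for the counts): C1qb, C1qc and C3. They are shown as 250 bases that end at the base before the gene's start, 5′ to 3′ on the gene's strand, because C3 rose after naphthalene and because the C1q chains moved together from library to library. C1qa, C4b, C2, Cfb and Serping1 were not matched. Capitals mark letters that match a searched motif on either strand.
C3, chr17:57228137-57228386, minus strand: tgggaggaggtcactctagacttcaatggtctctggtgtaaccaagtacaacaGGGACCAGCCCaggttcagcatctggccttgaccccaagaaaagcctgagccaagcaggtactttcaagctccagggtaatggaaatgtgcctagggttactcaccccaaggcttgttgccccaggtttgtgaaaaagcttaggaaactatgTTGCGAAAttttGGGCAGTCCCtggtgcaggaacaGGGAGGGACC
C1qb, chr4:136886201-136886450, minus strand: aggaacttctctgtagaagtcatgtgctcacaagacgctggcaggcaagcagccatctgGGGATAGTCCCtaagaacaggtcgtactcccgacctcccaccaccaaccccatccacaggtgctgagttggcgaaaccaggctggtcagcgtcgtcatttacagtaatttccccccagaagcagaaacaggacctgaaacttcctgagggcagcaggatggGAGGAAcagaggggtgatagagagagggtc
C1qc, chr4:136892915-136893164, minus strand: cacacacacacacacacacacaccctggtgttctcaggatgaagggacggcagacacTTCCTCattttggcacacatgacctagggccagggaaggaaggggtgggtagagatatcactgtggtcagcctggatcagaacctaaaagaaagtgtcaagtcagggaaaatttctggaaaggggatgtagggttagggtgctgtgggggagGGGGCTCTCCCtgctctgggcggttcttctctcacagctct

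The letters TTGCGNAA, a core of sites for C/EBP factors, occurred in the C3 window 45 to 38 bases before the start and in 0.67% of the 32851 promoter windows of the same length. GGG followed after any 5 bases by CC, a loose core of NF-kB sites, occurred in all 3 windows but also in 45.8% of all windows, and some of its matches overlap each other on opposite strands. GAGGAA, a core of sites for PU.1, a myeloid factor, occurred in the C1qb and C1qc windows and in 23.3% of all. TTCNNNGAA (GAS, 7.02% of all) and a pair of GAAA 2 bases apart (ISRE-type, 2.98%) had no match in these 3 windows. A match describes letters only and is no evidence that a factor binds.

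Some members share sequence with other genes, and how the authors' counting treated such reads is not given in the sources used here. In the GENCODE M21 annotation (GRCm38), 79.5% of the exon bases of Cfb and 42.8% of those of C2 are also exon bases of Gm20547, a transcript model on the same strand that joins both genes. Gm20547 had 0 reads in every library. A further 4.16% of the C2 exon bases lie opposite Zbtb12. The low Cfb count is therefore uncertain as a level of factor B RNA. C4b has a near-identical neighbour, C4a: 34.6% of the 50-base windows of C4b transcripts also occur in C4a transcripts, and reads from them could be split or lost. C4a read 1.07 to 2.33 CPM as group means.

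C4b, C3 and Serping1 rose after naphthalene at days 2 and 5, and the other 4 tested members were not called in these averages. Averaged over both genotypes, 3 of 7 tested members rose at day 2 and none fell by edgeR's quasi-likelihood test at an adjusted p of 0.05. Over all 20606 genes tested, 9.9% were called in either direction and 5.6% higher in that comparison. At day 5, 3 of 7 members again rose, against 7.16% of all genes in either direction and 4.34% higher. Without the library that stood apart, 2 of 7 rose at day 5, since Serping1 lost its call, and 3.31% of all genes were called. The averaged Serping1 call was kept in only 11 of 18 alternatives at day 2 and 9 of 17 at day 5. At day 7, 0 of 7 members were called by edgeR and 0 by DESeq2, against 0.374% of all genes by edgeR. At an unadjusted p under 0.05 by edgeR there was 1 member, and 5.23% of all genes passed. Within control mice 1 of 7 rose at day 2 (3.76% of all genes either way, 2.57% higher) and 1 at day 5 (2.39% and 1.1%). Without that library, edgeR called 0 of 7 in control mice of day 5 (2 at an unadjusted p under 0.05) and 0.112% of all genes. Within KO mice 2 of 7 rose at day 2 (2.74% and 1.99%) and 1 at day 5 (1.32% and 1.14%). In whole tissue, fewer cells of a type and less RNA per cell cannot be told apart, and this holds for every level below.

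**Figure D1:**
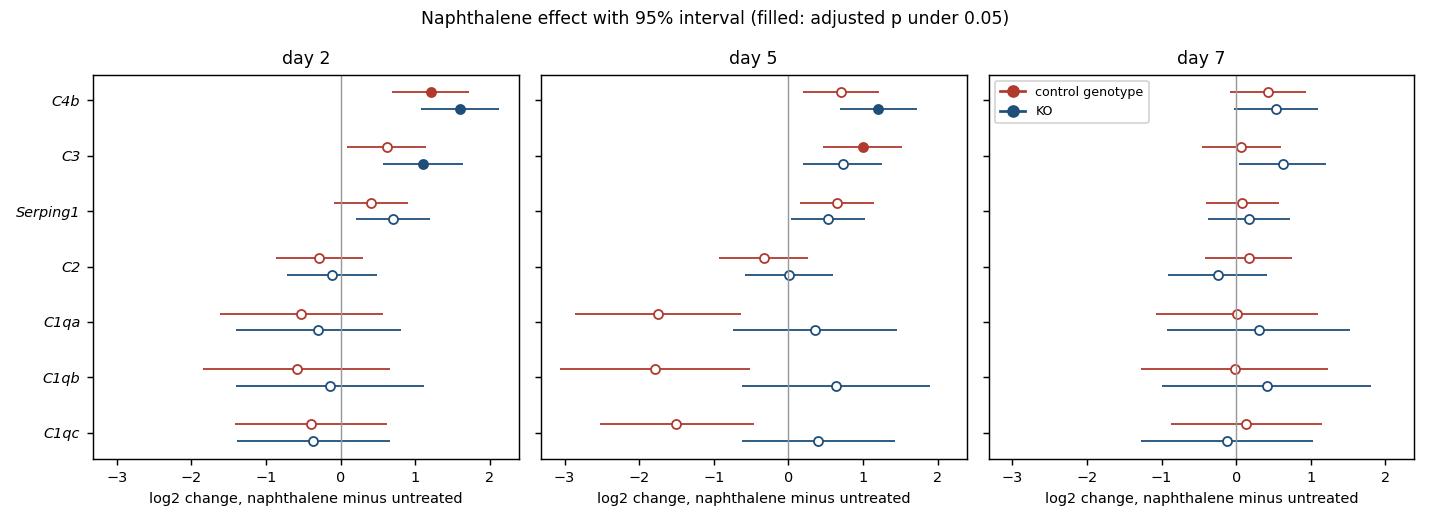
Log2 change between naphthalene and untreated lungs (x axis) for the 7 tested members (y axis) at days 2, 5 and 7, with 95% intervals, in control mice (red) and KO mice (blue); filled points have an adjusted p under 0.05. C4b is filled in both genotypes at day 2 and in KO mice at day 5, C3 in KO mice at day 2 and in control mice at day 5, and no point is filled at day 7.

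C1qa, C1qb and C1qc encode the 3 chains of C1q, the recognition molecule of the classical pathway. Outside the library that stood apart, C1qa ran from 18.6 to 58.6 CPM, C1qb from 11.7 to 47.9 CPM and C1qc from 13.2 to 50.4 CPM. In that library they read 288, 238 and 198 CPM, which is 9.14, 9.41 and 6.88 times the median of the others. C1qb per C1qa was 0.827 there, within the 0.435 to 1.01 of the other 34 libraries. C1qc per C1qa was 0.686, near the low end of the 0.608 to 1.1 of those libraries.

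At day 2 the control libraries read 30.1, 24.2 and 38.5 CPM of C1qa after naphthalene and 48.8, 57.9 and 26.8 CPM untreated. KO libraries of that day read 23.3, 30 and 18.6 CPM after naphthalene and 19.2, 35.7 and 33.1 CPM untreated. Treated and untreated libraries overlapped in both genotypes, and the same held for C1qb and C1qc. The untreated libraries of day 2 also differed by library letter, with C1qa at 33.1 to 57.9 CPM in the 4 with k and at 19.2 to 26.8 CPM in the 2 with n. Averaged over genotypes, the naphthalene effect at day 2 was −0.41 ± 0.38 on the log2 scale (SE) for C1qa, −0.36 ± 0.43 for C1qb and −0.38 ± 0.35 for C1qc, none of them called.

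At day 5 control mice read 33.1, 31.2 and 39.1 CPM of C1qa after naphthalene and 288, 25.7 and 34.3 CPM untreated. C1qb read 26.8, 25.7 and 28.3 CPM after naphthalene and 238, 13.7 and 26.9 CPM untreated. C1qc read 29.5, 28 and 32.9 CPM against 198, 25.9 and 32.6 CPM. For all 3 chains the first untreated library lay far above every other, and the remaining untreated libraries lay below the highest treated one. With all libraries, the effect in control mice was −1.75 ± 0.54 for C1qa (adjusted p 0.0729), −1.79 ± 0.62 for C1qb (0.0965) and −1.50 ± 0.50 for C1qc (0.0878). Without that library, the same effects were 0.20 ± 0.35, 0.40 ± 0.42 and 0.04 ± 0.38. Averaged over genotypes, C1qa moved from −0.69 ± 0.38 to 0.28 ± 0.24 C1qb from −0.57 ± 0.43 to 0.52 ± 0.28 and C1qc from −0.55 ± 0.35 to 0.22 ± 0.26. None of these averages was called in either fit. Leaving out another untreated control library gives replicate 1 more weight in its group. Without replicate 2, C1qa (adjusted p 0.0292) and C1qb (0.0379) were then called lower after naphthalene in control mice. Without replicate 3 all 3 chains were (0.00939 to 0.0181). For both fits the share of all genes called is not given, so these calls are not a result about the C1q chains. DESeq2 with all libraries called C1qa (adjusted p 0.0333).

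**Figure D2:**
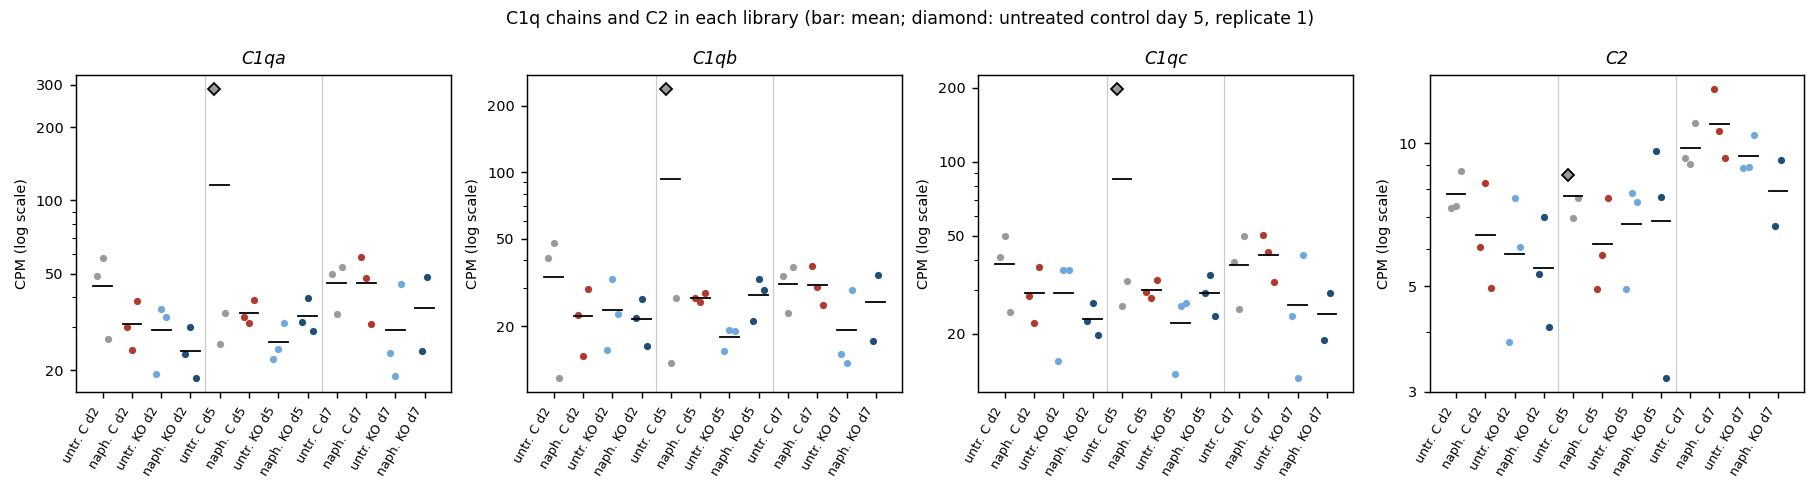
CPM on a log scale (y axis) of C1qa, C1qb, C1qc and C2 in each library of the 12 groups (x axis; untr., untreated; naph., naphthalene; C, control; d, day), with bars at the group means. The diamond marks untreated control replicate 1 of day 5, which reads 288 CPM of C1qa and lies above all other libraries in the 3 C1q panels but not in the C2 panel.

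Other transcripts differed in the same library. The microglia markers Cx3cr1 (108 CPM against at most 17.8 CPM elsewhere), Gpr34 (79.2 against 2.94 CPM), Siglech (39.5 against 0.951 CPM), Sall1 (22 against 1.9 CPM) and Slc2a5 (5.46 against 0.644 CPM) were highest there, while Tmem119 and Olfml3 were not. Of 6 neuron and glia genes 1 was highest there, and Gfap and Snap25 read 0.291 and 0.364 CPM. The 7 general macrophage markers summed to 422 CPM there, against at most 292 CPM in any other library. The sum of the C1q chains over that sum was 1.72, against at most 0.665 elsewhere. The part of these transcripts in the C1q levels was not tested.

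In KO mice of day 5, which do not include that library, C1qb read 21.2, 32.8 and 29.3 CPM after naphthalene and 15.4, 19.2 and 19 CPM untreated. The treated libraries were all above the untreated ones for C1qb, but not for C1qa or C1qc. The effects were 0.64 ± 0.62 for C1qb, 0.36 ± 0.54 for C1qa and 0.40 ± 0.50 for C1qc, with adjusted p of 0.671 to 0.795. At day 7 the averaged effects were 0.16 ± 0.40 for C1qa, 0.20 ± 0.46 for C1qb and 0.01 ± 0.38 for C1qc. The SEs of both days come from the fit of all libraries, so they include the spread of the library that stood apart.

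**Figure D3:**
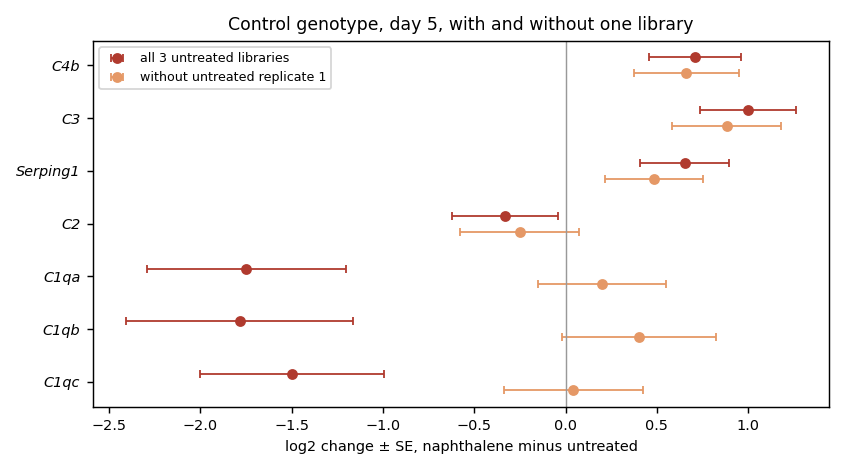
Log2 change between naphthalene and untreated lungs of control mice at day 5 (x axis, ± SE) for the 7 tested members (y axis), with all 3 untreated libraries and without replicate 1. The C1q chains lie between −1.79 and −1.50 with it and between 0.04 and 0.40 without it, while C4b, C3 and Serping1 stay above 0 in both.

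C4b encodes complement C4, which the C1 and lectin proteases cut and which then binds covalently to nearby surfaces. At day 2 control libraries read 79.6, 88.8 and 86.9 CPM after naphthalene against 38.5, 45.8 and 26.3 CPM untreated. KO libraries read 83.3, 50.3 and 71.6 CPM against 20.5, 25.6 and 21.3 CPM. Each treated library of day 2 lay above each untreated one, in both genotypes. C4b rose by 1.21 ± 0.25 on the log2 scale in control mice (2.31-fold, adjusted p 0.0029) and by 1.60 ± 0.26 in KO mice (3.04-fold, adjusted p 0.000213). Averaged over genotypes the rise was 2.65-fold, with an adjusted p of 1.55e-06.

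At day 5 control libraries read 73.4, 53.1 and 56.9 CPM of C4b after naphthalene against 34.9, 43.9 and 33.4 CPM untreated. KO libraries read 65.5, 83.9 and 81.1 CPM against 30.6, 34 and 35.1 CPM. The libraries again did not overlap in either genotype. C4b rose in KO mice by 1.21 ± 0.25 (2.31-fold, adjusted p 0.00856), while in control mice the change of 0.71 ± 0.25 had an adjusted p of 0.0982 (0.66 ± 0.29 and 0.32 without the library that stood apart). The KO call was lost without treated KO replicate 2 (adjusted p 0.0698), untreated KO replicate 1 (0.0626) or untreated KO replicate 2 (0.0534). The averaged rise of 1.94-fold (adjusted p 0.000987) was called in 17 of 17 alternatives, as was that of day 2 in 18 of 18.

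At day 7 the treated libraries read 35.9 to 74.6 CPM of C4b and the untreated ones 18.5 to 48.7 CPM, which overlap. The averaged effect was 0.48 ± 0.19 (1.39-fold, adjusted p 0.619). All 6 treated groups had higher mean C4b than all 6 untreated groups, from 45.7 ± 13.8 CPM (SD, n = 2) in KO mice of day 7 to 85.1 ± 4.85 CPM (n = 3) in control mice of day 2. The highest untreated group mean was 44 ± 5.18 CPM, in control mice of day 7, so that neighbours in this order did not differ beyond their spread. C4a, which shares sequence with C4b, differed by 0.22 ± 0.22 at day 2 and 0.01 ± 0.22 at day 5 and was not called.

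C2 encodes the protease that joins C4b in the C3-cleaving enzyme of the classical and lectin pathways. It read 3.21 to 13 CPM over all libraries, or 43 to 217 reads. At day 2 the treated libraries ran from 4.1 to 8.24 CPM (median 5.68) and the untreated ones from 3.81 to 8.76 CPM (median 7.35). At day 5 the ranges were 3.21 to 9.63 CPM and 4.94 to 8.58 CPM, and at day 7 they were 6.68 to 13 CPM and 8.85 to 11 CPM. Treated and untreated libraries overlapped at each day. The averaged effect was −0.20 ± 0.21 at day 2, −0.16 ± 0.21 at day 5 (−0.12 ± 0.22 without the library that stood apart) and −0.04 ± 0.22 at day 7, with adjusted p from 0.636 to 1.00.

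C3 encodes the central protein of the cascade, whose cleavage products coat surfaces and attract cells. At day 2 control libraries read 117, 87.2 and 117 CPM after naphthalene against 91.2, 76.8 and 41.2 CPM untreated. KO libraries read 131, 87.7 and 128 CPM against 63.7, 48 and 49.7 CPM. The KO libraries did not overlap, whereas 1 untreated control library lay above the lowest treated one. C3 rose in KO mice by 1.11 ± 0.26 (2.15-fold, adjusted p 0.015), while in control mice the change was 0.62 ± 0.26 (adjusted p 0.245). The KO call was lost without treated KO replicate 1 (adjusted p 0.0765) or 3 (0.0963), or without untreated KO replicate 2 (0.103) or 3 (0.0953). Averaged over genotypes C3 rose 1.82-fold (0.86 ± 0.18, adjusted p 0.00171), a call kept in 18 of 18 alternatives.

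At day 5 control libraries read 155, 102 and 107 CPM of C3 after naphthalene against 50.3, 54.4 and 77.2 CPM untreated. KO libraries read 81.5, 144 and 169 CPM against 103, 60.5 and 75.1 CPM. The control libraries did not overlap, and in KO mice 1 untreated library exceeded 1 treated library. C3 rose in control mice by 1.00 ± 0.26 (2-fold, adjusted p 0.039), and the change in KO mice was 0.73 ± 0.26 (adjusted p 0.209; 0.027 without treated KO replicate 1). The control call was lost without treated control replicate 1 (adjusted p 0.173), 2 (0.0898) or 3 (0.073), without untreated control replicate 1 (0.225) or 2 (0.149), and in a fit of only the compared groups (0.0916). The averaged rise was again 1.82-fold (0.86 ± 0.18, adjusted p 0.00379) and was called in 17 of 17 alternatives. Without the library that stood apart it was 0.80 ± 0.20 (adjusted p 0.0181).

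At day 7 C3 read 73.6 to 98.6 CPM after naphthalene and 51.6 to 90.7 CPM untreated, with an averaged effect of 0.35 ± 0.19 that was not called. As for C4b, all 6 treated groups had higher mean C3 than all 6 untreated ones. The lowest treated mean, 81.8 ± 9.34 CPM (SD, n = 3) in control mice of day 7, and the highest untreated mean, 79.4 ± 21.4 CPM (n = 3) in KO mice of day 5, did not differ beyond their spread.

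**Figure D4:**
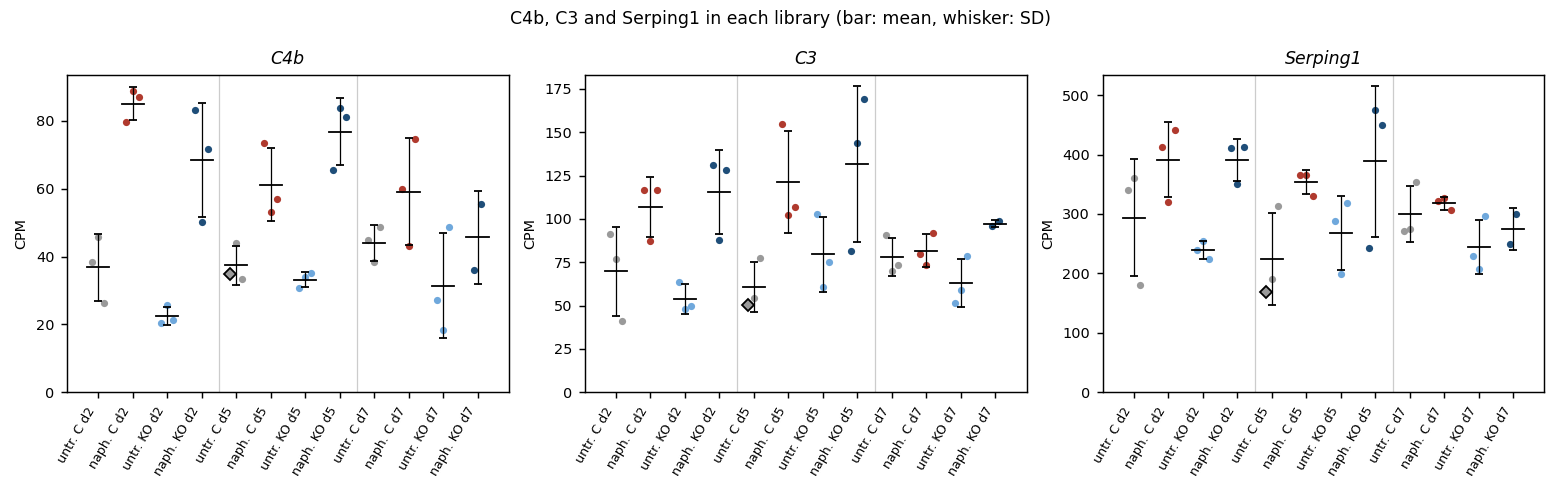
CPM (y axis) of C4b, C3 and Serping1 in each library of the 12 groups (x axis; untr., untreated; naph., naphthalene; C, control; d, day), with bars at the group means and whiskers of 1 SD. Treated C4b libraries of day 2 (50.3 to 88.8 CPM) lie above all untreated ones of that day (20.5 to 45.8 CPM); the diamond is untreated control replicate 1 of day 5.

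Cfb encodes factor B, the protease subunit of the alternative pathway. Its 57 reads over all 35 libraries left 11 libraries at 0, and the highest library read 0.356 CPM. At day 5 the treated libraries held 14 reads in all and the untreated ones 10, and at day 2 they held 13 and 12. No difference in Cfb was detectable with these read numbers. A library with 0 reads still allows 3 reads, and each of the 2 KO libraries of day 7 after naphthalene was at 0.

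Serping1 encodes C1 inhibitor, which inactivates the C1 and lectin pathway proteases. At day 2 control libraries read 412, 320 and 442 CPM after naphthalene against 340, 361 and 181 CPM untreated. KO libraries read 411, 350 and 412 CPM against 239, 254 and 225 CPM. The KO libraries did not overlap, and the control libraries did. Averaged over genotypes Serping1 rose 1.47-fold (0.56 ± 0.17, adjusted p 0.033). It was called in neither genotype alone, with 0.41 ± 0.24 in control mice and 0.71 ± 0.24 in KO mice (adjusted p 0.526 and 0.122). The averaged call was lost without treated KO replicate 1 (adjusted p 0.0678) or 3 (0.0795), treated control replicate 1 (0.0726) or 3 (0.08), untreated KO replicate 2 (0.052) or 3 (0.0787), or untreated control replicate 3 (0.102).

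At day 5 control libraries read 365, 365 and 331 CPM of Serping1 after naphthalene against 169, 191 and 313 CPM untreated. KO libraries read 243, 475 and 449 CPM against 288, 199 and 318 CPM. Here the control libraries did not overlap, and the lowest treated KO library lay below 2 untreated ones. The averaged rise was 1.51-fold (0.59 ± 0.17, adjusted p 0.0327). Its call was lost without the library that stood apart (0.51 ± 0.18, adjusted p 0.106), without untreated control replicate 2 (0.0917) or untreated KO replicate 2 (0.11). It was also lost without treated control replicate 1 (0.0662) or 2 (0.0667), without treated KO replicate 2 (0.124) or 3 (0.0946), and with only the compared groups (0.0988). Within control mice Serping1 was called without untreated control replicate 3 (0.98, adjusted p 0.0133). At day 7 the ranges were 250 to 327 CPM and 208 to 354 CPM, with an effect of 0.13 ± 0.18.

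Markers of other cell types moved with these rises. Of 8 alveolar macrophage markers, Marco, Chil3 and Plet1 rose at day 2 and again at day 5, and none fell. The sum of all 8 at day 2 was 547 to 744 CPM in treated and 323 to 367 CPM in untreated control libraries. In KO libraries it was 550 to 728 CPM and 340 to 355 CPM. The most abundant of the 8 were Car4 (209 to 352 CPM) and Chil3 (44.6 to 647 CPM), outside the library that stood apart. Car4 was not among the called markers and held a large part of the untreated sums. Which cells made these transcripts was not tested, so the sums are no measure of macrophage number. Of 3 club cell markers, 3 fell at day 2 and 1 at day 5. Among 7 fibroblast markers Dcn rose and Col3a1 fell at day 2, and Dcn and Lum rose at day 5. Of 5 alveolar type 2 markers none was called at day 2, and Sftpc and Sftpa1 rose at day 5. All these marker calls of day 5 come from the fit of all libraries and were not repeated without the library that stood apart. The 6 hepatocyte markers summed to at most 1.64 CPM in a library, with Serpina1c at 0 in all libraries, although Ahsg rose at day 2 from these low levels. The part of these cell types in the rises was not tested.

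The difference between days was tested after seeing the results above. From day 2 to day 7 the averaged naphthalene effect on C4b changed by −0.92 ± 0.26 (adjusted p 0.0831), that on C3 by −0.52 ± 0.27 and that on Serping1 by −0.43 ± 0.25. By edgeR 0 of 7 members were called, against 1.01% of all genes, and DESeq2 called 1. At an unadjusted p under 0.05 by edgeR there was 1 member, and 11.1% of all genes passed. The C4b difference was called without treated KO replicate 2 of day 2 (−1.01, adjusted p 0.0374) or untreated KO replicate 2 of day 7 (−1.06, adjusted p 0.0197). From day 5 to day 7 edgeR called 0 of 7 members (0 at an unadjusted p under 0.05; 0 by DESeq2) and 0% of all genes, with C4b at −0.48 ± 0.26, C3 at −0.52 ± 0.27 and Serping1 at −0.47 ± 0.25. Leaving out the library that stood apart, these were −0.45 ± 0.27, −0.46 ± 0.28 and −0.38 ± 0.25, and 0% of all genes were called. So a call at days 2 and 5 and none at day 7 is not by itself a measured decline. The library letter differs between treated and untreated libraries at days 2 and 5 but not at day 7. In these differences between days, the letter and naphthalene therefore cannot be told apart.

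Untreated lungs were compared between day labels 7 and 2 as well, averaged over genotypes. The untreated libraries carry the letter k or n at day 2 and p at day 7, so day label and letter cannot be told apart. By edgeR 0 of 7 members were called, while 13.8% of all genes were, and DESeq2 called 0 members. At an unadjusted p under 0.05 by edgeR there were 2 members, and 28.9% of all genes passed. C2 was 0.50 ± 0.20 higher at day 7 (adjusted p 0.1) and C4b 0.37 ± 0.18 higher (adjusted p 0.164). C4b was called without untreated KO replicate 2 of day 7 (0.51, adjusted p 0.0449). C3, Serping1 and the C1q chains differed by −0.20 to 0.20.

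Whether the genotype altered these levels was tested at each agent and day, averaged over all of them, and as a difference between genotypes in the naphthalene effect. In the 6 comparisons of KO with control mice edgeR called 0 of 7 members and 0% of all genes each time. DESeq2 called 0 members, and 9 genes in all in untreated mice of day 5. At an unadjusted p under 0.05 there was 1 member in untreated mice of day 2 and 3 in untreated mice of day 5, and 0 in the other 4. At that unadjusted threshold 4.53% and 9.56% of all genes passed in these untreated mice, and 2.53% to 7.03% in the other 4 comparisons. Once the library that stood apart was left out, 0 members passed it in untreated mice of day 5. C4b in untreated mice of day 2 read 20.5 to 25.6 CPM in KO and 26.3 to 45.8 CPM in control libraries, a difference of −0.71 ± 0.25 (adjusted p 0.842).

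In untreated mice of day 5 the C1q chains differed by −2.15 ± 0.55 (C1qa), −2.38 ± 0.64 (C1qb) and −1.95 ± 0.51 (C1qc) between KO and control mice, with adjusted p from 0.289 to 0.328. Without the library that stood apart the differences were −0.21 ± 0.35, −0.19 ± 0.42 and −0.41 ± 0.38. Leaving out untreated control replicate 2 or 3 of that day gives the library that stood apart more weight in its group. All 3 chains were then called lower in KO mice, with adjusted p of 0.0127 to 0.0383. The share of all genes called in these fits is not given, so this count is not a result about the C1q chains.

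Averaged over agents and days, edgeR called 0 of 7 members and 0% of all genes between KO and control mice (4 members and 15% of all genes at an unadjusted p under 0.05; 0 by DESeq2). The averaged differences were −0.69 ± 0.22 for C1qa, −0.64 ± 0.26 for C1qb, −0.68 ± 0.21 for C1qc and −0.29 ± 0.10 for C4b, each with an adjusted p of 0.298. Without the library that stood apart they were −0.37 ± 0.13, −0.27 ± 0.16, −0.42 ± 0.14 and −0.30 ± 0.11, with adjusted p of 0.321 to 0.395. C3 and Serping1 differed by 0.03 ± 0.11 and −0.07 ± 0.10.

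The genotype difference in the naphthalene effect was called for 0 of 7 members and 0% of all genes by edgeR at each of the 3 days. At an unadjusted p under 0.05 there were 0 members at day 2, 3 at day 5 (9.07% of all genes) and 0 at day 7, and DESeq2 called 0 at each. The C4b effect was 0.40 larger in KO mice at day 2, with a 95% interval of −0.33 to 1.12, and 0.50 larger at day 5 (−0.22 to 1.22). For C3 the differences were 0.48 (−0.26 to 1.23) and −0.27 (−1.02 to 0.47). These intervals leave room for sizeable differences of either sign, so the calls made in 1 genotype only do not show that the genotypes differed. The 3 members of day 5 were the C1q chains, at 2.11 ± 0.76, 2.42 ± 0.87 and 1.90 ± 0.71, and without the library that stood apart they were 0.16 ± 0.47, 0.23 ± 0.56 and 0.36 ± 0.51.

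Another 49 complement genes were read as a group, of which 37 were tested. At day 2, averaged over genotypes, 4 rose and 2 fell, beside 9.9% of all genes called and 5.6% higher. The median log2 change of the 37 was 0.22, against −0.04 over all genes. Within a genotype, Clu, Cpn2 and C6 rose and Colec10 and Itgax fell in control or KO mice at day 2. At day 5, 6 rose and 1 fell, beside 7.16% of all genes called and 4.34% higher, with a median of 0.23 against −0.02. Within a genotype of that day Clu rose in control and KO mice, and Colec10 fell in KO mice. Without the library that stood apart the averaged counts of day 5 were 2 and 1, beside 3.31% of all genes, since C1ra, Cfd, Cpn1 and Cpn2 lost their call (adjusted p 0.0571 to 0.0732). At day 7 edgeR called 0 of 37 (8 at an unadjusted p under 0.05, which 5.23% of all genes passed; 0 by DESeq2).

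Clu encodes clusterin, which binds the terminal complex and keeps it from inserting into membranes. Treated libraries read 169 to 206 CPM of Clu at day 2 and untreated ones 48.6 to 82.8 CPM. At day 5 they read 111 to 309 CPM against 53.8 to 85.7 CPM, and at day 7 127 to 165 CPM against 68.7 to 118 CPM. The groups did not overlap at any of these days. Clu rose by 1.56 ± 0.18 at day 2 (adjusted p 1.6e-07) and by 1.51 ± 0.17 at day 5 (adjusted p 1.2e-06), while its 0.59 ± 0.18 at day 7 had an adjusted p of 0.237.

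Cpn2, the regulatory subunit of carboxypeptidase N, which trims the anaphylatoxins, rose at day 2 from group means of 0.292 and 0.27 CPM to 2.57 and 2.08 CPM in control and KO mice. These are 16 and 11 reads against 134 and 102 reads over 3 libraries each. C6, a component of the terminal complex, rose in KO mice of day 2 from 30.8 ± 4.04 to 49.6 ± 7.7 CPM (SD, n = 3). Colec10, a lectin that can start the lectin pathway, fell in control mice of day 2 from 0.899 ± 0.228 to 0.132 ± 0.0252 CPM and in KO mice of day 5 from 1.3 ± 0.459 to 0.188 ± 0.0431 CPM. Itgax, the alpha chain of complement receptor 4, fell in control mice of day 2 from 25.2 ± 1.77 to 15.1 ± 1.21 CPM. Colec10 and Cpn2 thus rest on few reads.

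Cfd, Masp1, Cpn1 and C1ra were called only in the averages, and they are named here after their values were seen. Cfd encodes factor D, the protease that activates factor B, and rose by 1.73 ± 0.42 at day 2 and 1.51 ± 0.41 at day 5. Cfd is also a fat cell transcript, and of 5 adipocyte markers Cfd itself and Car3 rose at these days. The adipocyte sum was 12.1 to 23.7 CPM in treated and 6.81 to 11.1 CPM in untreated control libraries of day 2, and its part in the Cfd level was not tested. Masp1, a lectin pathway protease, rose by 0.80 ± 0.20 at day 5. On that day Cpn1, the catalytic subunit of carboxypeptidase N, rose by 1.06 ± 0.27 and C1ra, a protease of the C1 complex, by 0.47 ± 0.13. These values come from the fit of all libraries. Without the library that stood apart, Cfd, Cpn1 and C1ra lost their calls of day 5.

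**Figure D5:**
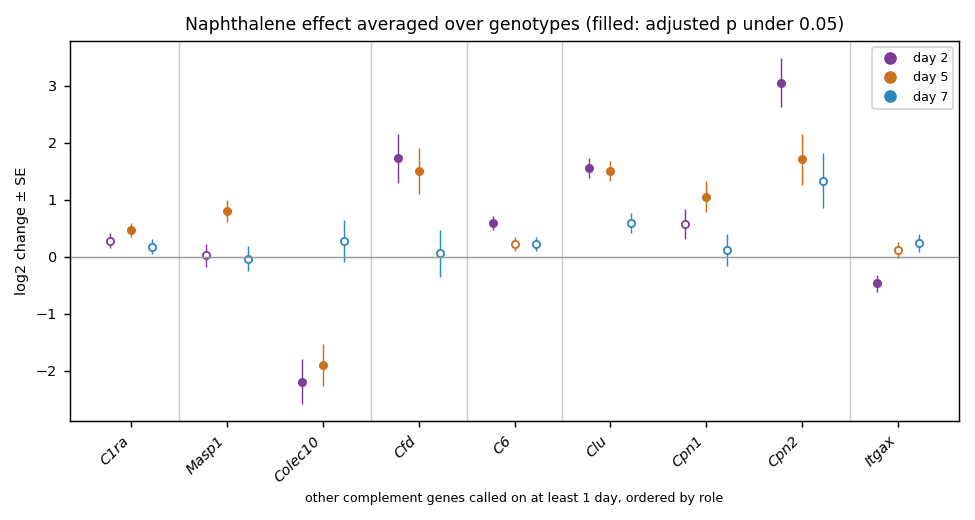
Log2 change between naphthalene and untreated lungs, averaged over genotypes (y axis, ± SE), of the other complement genes called on at least 1 of days 2, 5 and 7 (x axis, ordered by role); filled points have an adjusted p under 0.05. Clu and Cpn2 are filled above 0 and Colec10 below 0 at days 2 and 5, and no point is filled at day 7. All libraries are included, and Cpn2, C1ra, Cfd and Cpn1 lose their day 5 call without the library that stood apart.

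Between day labels 7 and 2 of untreated lungs, 6 of the 37 other genes were higher and 0 lower, beside 6.06% of all genes higher and 7.7% lower. Among them were Cfd (2.27 ± 0.42), Cd59b (0.88 ± 0.28), Vtn (0.58 ± 0.17), Clu (0.54 ± 0.17) and C1s1 (0.37 ± 0.11), named after their values were seen. Clu and Cfd were thus also called without naphthalene, but here the day label and the library letter cannot be told apart. In the same comparison 5 of 5 adipocyte markers, Cfd among them, and 2 of 3 club cell markers were higher. The adipocyte sum was 19.3 to 52.5 CPM in control and 12.5 to 40.8 CPM in KO libraries of day 7, against 6.81 to 11.1 CPM and 6.28 to 11 CPM at day 2. Their part in these levels was not tested.

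Levels of the members were compared over libraries as log2 CPM, as a description and with no test, since the libraries share groups and depth. Over the 34 libraries without the 1 that stood apart, C1qa correlated with C1qc at r = 0.914 and with C1qb at r = 0.882, and C1qb with C1qc at 0.816. C3 correlated with Serping1 at 0.841 and with C4b at 0.786, and C4b with Serping1 at 0.751. C1qa and C3 correlated at 0.0677, and C2 with C3 at −0.463. As deviations from group means over 32 libraries, these became 0.916 for C1qa with C1qc, 0.768 for C3 with Serping1 and 0.54 for C4b with C3. The C1q chains correlated with the risers to a like degree on that scale: C1qb with Serping1 at 0.693 and with C4b at 0.582, C1qc with C4b at 0.561, and C1qa with Serping1 at 0.529 and with C4b at 0.511. C1qa with C3 was at 0.189 and C1qc with C3 at 0.0474.

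Among the 11700 genes that averaged 5 CPM or more, the 5 nearest to C3 over the 34 libraries were Plet1 (r = 0.917), Slc44a3 (0.887), Entpd1 (0.883), Clu (0.871) and Nceh1 (0.854). Over all 35 libraries these read 0.859 to 0.921. Nearest to C4b were Muc4 (0.872), Ldlrad1 (0.871), Cxcl17 (0.865), Susd2 (0.861) and Clu (0.86), at 0.849 to 0.874 over all 35. Nearest to C1qa were C1qc and C1qb, and among the 5 nearest were also Lgi3 (0.867) and H2-DMa (0.854). Over all 35 libraries C1qa kept C1qc at 0.956 and C1qb at 0.948, while Lgi3 read 0.456 and H2-DMa 0.601.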

How the data were processed

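RNA from whole mouse lung homogenate was extracted with Trizol and sequenced after a Watchmaker Genomics mRNA kit, per the labels' protocols. The authors deposited 1 table of whole-number read counts per gene, with Ensembl identifiers and symbols, for 35 libraries. GRCm39 and DESeq2 are named, without a role, per the submitters' processing notes; for the aligner, counter, strand setting and annotation, the tools were not given in the sources used here.

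Library columns were matched to samples by title. Counts of 57186 genes were filtered by edgeR's filterByExpr (20606 genes tested, at least 99.87% of counts kept), scaled by TMM and fitted as 12 group means with the robust quasi-likelihood test of edgeR 4.0.16 (R 4.3.3), with Benjamini-Hochberg adjustment over all tested genes and a threshold of 0.05. Each effect is a contrast of group means, given in log2 units ± its standard error; levels are CPM. The common biological coefficient of variation was 0.222, with 23 residual degrees of freedom. Totals had a median of 16.16 M counts. The fitting code was tested on simulated counts.

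The 8 members, the other lists and the tests were chosen with earlier results of these data known. All members are named. Of the other complement genes, those called in either genotype at a day are named. Genes most like C3, C4b and C1qa are the 5 with the highest Pearson r of log2 CPM (prior count 2). Some genes of these lists are not reported here. Alternatives were DESeq2 1.42.0, RLE factors, no filter on low counts, a replicate block, a fit of the compared groups alone, and each library left out in turn. The fit of all comparisons without untreated control replicate 1 of day 5, and the tests between day effects, were chosen after seeing the data.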

Additional observations from a re-analysis of the deposited data

How the results depend on the processing

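The numbers of members called kept within 1.5 times their value in 328 settings. The other 30 follow, and the cause was not tested. For most of them the share of all genes called is not given, so their counts are not a result about the members. With no filter on low counts, 6 members were called in the averaged effect of day 5, 6 in control mice and 2 in KO mice of day 5, 3 in the genotype difference of day 5, 3 between KO and control untreated mice of day 5, 4 between genotypes averaged, and 1 in each difference between day effects (7 minus 2, 7 minus 5). DESeq2 called 2 in control mice of day 5, where it called 1332 genes in all. It called 1 in the difference of day 7 minus 2, where it called 340 genes in all. Fitting the compared groups alone gave 0 in control mice of day 5. Leaving out 1 library at a time gave 1 to 2 members in KO mice of day 2, 0 to 2 in KO mice of day 5, 0 to 5 in control mice of day 5, 0 to 3 between untreated genotypes of day 5, 0 to 1 in the difference of day 7 minus 2, and 0 to 1 between untreated day labels. Leaving out 1 treated KO library of day 7 leaves 1, which is then assumed to vary like the other groups. RLE factors moved no count. Over the members' log2 changes, 2334 kept their direction and side of the threshold, 28 lost and 40 gained a call, and 104 in 50 results changed sign, none of them called before or after. Without untreated control replicate 1 of day 5, the averaged effects of that day turned from negative to 0.281 for C1qa, 0.52 for C1qb and 0.221 for C1qc, and those in control mice to 0.2, 0.403 and 0.0424. Of the 104, 6 arose without leaving out a library: C1qc in the averaged effect of day 7 (−0.00618 with RLE factors, −0.00454 by DESeq2), C1qa in control mice of day 7 (−0.000485 with the replicate block, −0.00686 with the compared groups alone) and Serping1 in treated KO minus control mice of day 2 (0.00145 and 0.00281). The other 98 came from leaving out 1 library at a time, with these lowest and highest log2 values. For treated KO minus control mice of day 2 the ranges were Serping1 −0.128 to 0.0943, C3 −0.0203 to 0.274 and C1qb −0.266 to 0.212. For the genotype difference in effect of day 2 the ranges were C1qc −0.27 to 0.271, C2 −0.0484 to 0.422 and C1qa −0.012 to 0.49. For KO mice of day 2 the ranges were C1qb −0.364 to 0.17 and C2 −0.331 to 0.139. For KO mice of day 5 the range was C2 −0.289 to 0.352. For the genotype difference in effect of day 5 the range was Serping1 −0.453 to 0.137. For treated KO minus control mice of day 5 the ranges were C1qa −0.204 to 0.0565, C2 −0.16 to 0.493, C1qc −0.21 to 0.0807, C3 −0.108 to 0.371, C1qb −0.11 to 0.214 and Serping1 −0.0477 to 0.394. For the averaged effect of day 5 the ranges were C2 −0.304 to 0.0104, C1qa −0.916 to 0.281, C1qb −0.816 to 0.52 and C1qc −0.751 to 0.221. For the averaged genotype difference the range was C3 −0.0146 to 0.0705. For the averaged effect of day 7 minus day 5 the ranges were C2 −0.0482 to 0.277, C1qa −0.126 to 1.08, C1qb −0.324 to 1.02 and C1qc −0.214 to 0.783. For untreated day 7 minus day 2 the ranges were C1qc −0.362 to 0.069, C1qa −0.233 to 0.148 and Serping1 −0.097 to 0.13. For control mice of day 5 the ranges were C1qa −2.2 to 0.2, C1qb −2.28 to 0.403 and C1qc −1.91 to 0.0424. For the averaged effect of day 7 the ranges were C2 −0.162 to 0.073, C1qc −0.169 to 0.252, C1qa −0.139 to 0.377 and C1qb −0.0957 to 0.405. For KO mice of day 7 the ranges were C1qc −0.48 to 0.383, C1qa −0.294 to 0.76 and C1qb −0.178 to 0.837. For the genotype difference in effect of day 7 the ranges were C1qc −0.621 to 0.261, C4b −0.25 to 0.575, Serping1 −0.0685 to 0.252, C1qa −0.311 to 0.767 and C1qb −0.165 to 0.868. For treated KO minus control mice of day 7 the ranges were C1qa −0.951 to 0.081 and C1qb −0.864 to 0.157. For control mice of day 7 the ranges were C1qa −0.217 to 0.231, C1qc −0.103 to 0.36, C1qb −0.211 to 0.118 and C3 −0.0227 to 0.189. For untreated KO minus control mice of day 7 the range was C2 −0.144 to 0.0276. The replicate numbers did not pair the libraries: deviations of same-numbered libraries correlated at −0.305 to 0.156 over 17 pairs, 3 of them over 0.1. With the replicate block 3 members were called at day 2 and 3 at day 5 in the averaged effects, as without it, and no other count moved. Few reads limit what can be said of Cfb, and whether reads were lost to shared exons was not tested.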
